A study of Homo sapiens with 6 samples.

Results

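The genes described here are the human ubiquitin ligase genes whose symbols are TRIM or RNF followed by a number, with or without a final letter. The rule for the names used the symbol alone and no expression value, but it was set with earlier results of these data known. The table held 156 such loci among 47577 (72 TRIM and 84 RNF). A DESeq2-normalized read count of 10 or more in 3 or more of the 6 libraries was asked for, and 118 of them (47 TRIM and 71 RNF) had it. Among the rest, 14 were listed at 0 in every library, RNF25 among them, and 24 had some reads but missed the minimum. Whether a 0 reflects absent RNA or the way the locus was annotated and counted was not tested. The third-highest library value, which set the side of the minimum, was 9.09 for RNF151 and RNF180 and 9.57 for TRIM9 just below it, and 11.1 for RNF112, 15.9 for TRIM10 and 26.4 for RNF32 just above it. RNF112 was the only member that passed through the libraries of 1 group alone.

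The RNA came from OVCAR3, an established line of high-grade serous ovarian cancer. The cells received the solvent DMSO or 200 nM THZ531 for 6 h, and each arm had 3 libraries that the labels describe as biological repeats. THZ531 is a covalent inhibitor of CDK12 and CDK13, kinases that phosphorylate RNA polymerase II during elongation. The sample titles name THZ531, whereas the treatment text in the labels speaks of THZ1 at that concentration, and the libraries are called THZ531 here after their titles. The p-values measure the spread between these libraries of a single cell line.

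Ubiquitin ligases carry out the last step of a cascade in which an E1 enzyme activates ubiquitin, an E2 enzyme carries it and the E3 ligase brings the loaded E2 to a substrate. Most TRIM and RNF proteins are E3 ligases with a RING finger, a zinc-binding fold that docks the E2. TRIM proteins join the RING to B-box fingers and a coiled coil and differ mainly in the domain at their C-terminal end, often a PRY-SPRY domain that binds the target, and many act in antiviral signalling. The RNF symbol says only that a RING finger is present, so RNF proteins sit in pathways as different as DNA repair, histone ubiquitination, quality control at the endoplasmic reticulum and receptor sorting.

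Reads counted on genes ran from 53054048 to 70986130 in a library, and the DMSO libraries were the deeper ones. The epithelial markers EPCAM, KRT7, KRT8 and KRT18 and the ovarian tumour markers MUC16, MSLN and WT1 were present in every library, and the lineage factor PAX8 lay at 10645 to 11636 in DMSO and 1161 to 1380 in THZ531. Of 8 markers of other cell types, the fibroblast list of COL1A1, COL3A1 and DCN summed to 1611 to 1865 in DMSO and 3135 to 3443 in THZ531, while DCN itself was at 0 to 3.19. The endothelial pair PECAM1 and VWF summed to 131 to 179 in DMSO and 189 to 228 in THZ531, and the immune list of PTPRC, CD3E and CD68 to 407 to 496 in DMSO and 404 to 490 in THZ531, with CD3E at 0 throughout. The part of these markers in the results below was not tested. In bulk RNA, fewer cells that express a gene and less RNA of it per cell cannot be told apart.

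More TRIM and RNF genes were lower than higher with THZ531. Among the 118 members, 38 (32.2%) were called lower and 18 (15.3%) higher, at a fold change of at least 1.5 with an unadjusted p of at most 0.05 in limma on the log2(value + 1) scale. Over all 17568 loci tested, 39.5% were called, 23.9% lower and 15.7% higher, so the share of lower calls stood above the background and the share of higher calls beside it. Over the 15278 tested loci that carry a symbol the shares were 23.7% and 13.3%. On the log2 scale the median change over the members was -0.23, with a range of -3.58 to 3.00. Without RNF112, an alternative added after the data were seen, 37 of 117 were lower and 18 higher, and the range began at -2.45. Over all loci the median was -0.01. The 56 called members all had an adjusted p (limma, Benjamini-Hochberg over all loci) of at most 0.05 and DMSO and THZ531 libraries that did not overlap. Groups without overlap were found for 92 of the 118 members, where 71.7% of all loci had them. A further 37 members had an adjusted p of at most 0.05 with a change below 1.5-fold, which makes 93 members in all beside 68.6% of all loci.

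In the deposited scaling the TRIM genes leaned further down than the RNF genes. Of 47 TRIM genes 19 (40.4%) were lower and 4 (8.51%) higher, with a median log2 fold change of -0.48. Of 71 RNF genes 19 (26.8%) were lower and 14 (19.7%) higher, with a median of -0.09. The difference between the families was not tested, because genes are not replicates of a condition. Among the 98 members with a mean of at least 100 over the 6 libraries, 31 were lower and 14 higher with a median of -0.20, which is close to the figures for all 118.

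**Figure D1:**
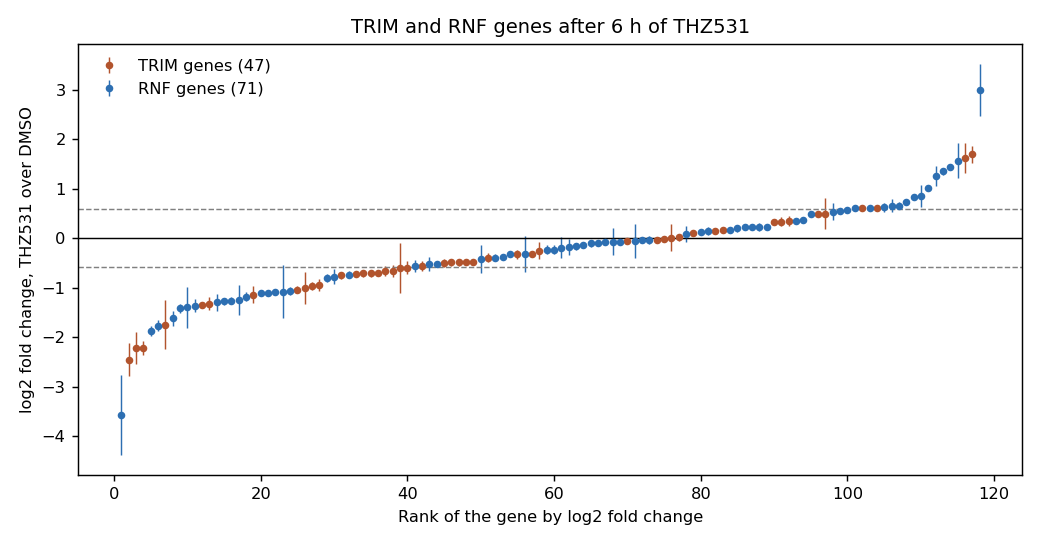
Log2 fold change of THZ531 over DMSO on the log2(value + 1) scale for the 118 TRIM and RNF genes tested, ordered from the lowest to the highest (x axis, rank). Points are limma estimates with bars of 1 SE from 3 libraries a group, brown for the 47 TRIM and blue for the 71 RNF genes, and dashed lines mark a 1.5-fold change: the row starts at -3.58 (RNF112, which passed the minimum through DMSO alone) and ends at 3.00 (RNF225), and TRIM genes fill more of the lower than of the upper end.

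The scaling of the libraries moved the higher calls in some cases. Set to the upper quartile or scaled with TMM in edgeR, the libraries gave 18 higher and 38 lower members as in the deposited scaling, with shifts of the median of all loci of -0.02 in both. When the libraries were set to the same total, the median of all loci moved by -0.24 on the log2 scale, and when they were set to RPL34, a ribosomal protein gene, it moved by -0.49. All 38 lower members were also called lower under both of these. Both scalings move all loci down, so a fall could hardly lose its call, and this is no separate support for the falls. None of the scalings tried moved the loci up. Of the 18 higher members, 10 were still called higher with the same total and 7 with RPL34 (RNF19B, RNF39, RNF103, RNF152, RNF225, TRIM36 and TRIM71). RNF122, RNF139 and RNF168 were the others that kept the call with the same total. The whole set of members gave 52 lower calls with the same total and 63 with RPL34, that is 44.1% and 53.4% of the members beside 32.0% and 42.8% of all loci. The share of higher calls was 8.47% and 5.93% beside 9.38% and 6.14% of all loci. The share of lower members thus lay above that of all loci in the deposited scaling, with the same total and with RPL34. The share of higher members lay just below that of all loci in each of the 3, and in the deposited scaling above the 13.3% of loci with a symbol. No test of these shares was made.

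**Figure D2:**
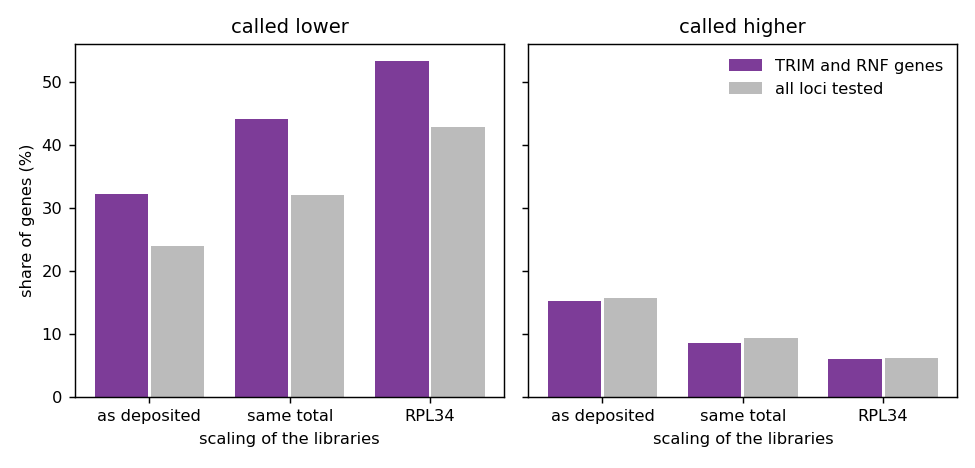
Share of the 118 TRIM and RNF genes (purple) and of all 17568 loci tested (grey) called lower (left) or higher (right) under 3 scalings of the libraries, in percent. The purple bars for lower calls stand at 32.2%, 44.1% and 53.4% beside 23.9%, 32.0% and 42.8% for all loci, and those for higher calls at 15.3%, 8.47% and 5.93%.

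Leaving out 1 library at a time tested how far single libraries decided the calls. Of the 56 called members 46 kept the call in all 6 fits. The other 10 were RNF2, RNF10, RNF11, RNF112, RNF138, RNF144B, TRIM7, TRIM17, TRIM55 and TRIM68, and the library concerned is named where each is described.

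The largest fall among well-expressed members was that of TRIM66 (chr11:8612040-8671866, minus strand, hg38), a chromatin-associated protein of the TIF1 family with a PHD finger and a bromodomain. Its normalized read counts were 701, 646 and 745 in DMSO and 128, 138 and 189 in THZ531. The means were 697 ± 49.8 and 152 ± 32.6 (SD, n = 3), and TRIM66 fell by 2.21 on the log2 scale (SE 0.14, limma adjusted p = 9.5e-10), and the highest THZ531 library was far below the lowest DMSO library.

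RNF146 (chr6:127266682-127288562, plus strand) recognises poly(ADP-ribose) chains on its substrates and acts on AXIN in WNT signalling. It had 734, 753 and 704 in DMSO and 209, 194 and 191 in THZ531, and fell by 1.88 (SE 0.10, limma adjusted p = 1.4e-10). Both groups were tight and far apart. RNF41 (chr12:56202179-56221969, minus strand) limits the receptor ERBB3 at the cell surface. It had 1553, 1249.9 and 1106 in DMSO and 424, 382 and 334 in THZ531 and fell by 1.77 (SE 0.12, limma adjusted p = 1.4e-09). The DMSO libraries were more spread than the THZ531 libraries, yet the lowest of them was still above every treated library. RNF207, known from the control of a cardiac potassium channel, had 282, 279 and 282 in DMSO and 103, 77.3 and 93.3 in THZ531 and fell by 1.62 (limma adjusted p = 1.9e-07). It shares its span with genes on the opposite strand, ICMT among them, and whether reads were counted by strand is not given in the sources used here.

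RNF214 fell by 1.42, from 1020.3 ± 57.3 to 381 ± 20.2 (SD, n = 3), and RNF215 by 1.36, from 439.8 ± 11.2 to 172 ± 22.96. TRIM38 (chr6:25962773-25991231, plus strand), a PRY-SPRY ligase that tunes Toll-like receptor and RNA-sensing pathways, had the most reads of the 10 largest falls. It had 3401, 3272 and 3441 in DMSO and 1370.3, 1206 and 1378 in THZ531 and fell by 1.36 (SE 0.06, limma adjusted p = 1.4e-11). TRIM56, which acts in cytosolic DNA and RNA sensing, had 563, 600.4 and 518 in DMSO and 183, 271 and 226 in THZ531 and fell by 1.32. RNF217 fell by 1.30 from 245 ± 26.4, and RNF111, a ligase of TGF-beta signalling that also reads SUMO chains, fell by 1.27 from 2071 ± 170.4 to 854 ± 48.1. Groups without overlap were a condition for the choice of these 10 genes, so this trait is no support for their falls. No single library decided the call of any of these genes. They stayed lower under each scaling, which the downward shift of the other scalings made nearly certain.

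The largest rise by the same rule was that of TRIM36 (chr5:115124763-115180294, minus strand), a TRIM protein with a COS box, the motif that binds microtubules. Its normalized read counts were 80.98, 62.2 and 78.99 in DMSO and 236, 224 and 264 in THZ531, a rise by 1.70 (SE 0.18, limma adjusted p = 3.3e-07) or 3.26-fold between the means. The groups were far apart but the level was low in both. RNF19B (chr1:32936446-32964814, minus strand), of the RING-between-RING class, in which ubiquitin passes through the ligase itself, had 1173, 1157 and 1089.9 in DMSO and 3325, 2938 and 2991 in THZ531. It rose by 1.43 (SE 0.06, limma adjusted p = 9.0e-12), and it was the largest rise among members with a mean above 1000.

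RNF103 (chr2:86603394-86623877, minus strand), a ligase of the endoplasmic reticulum membrane, had 769, 916 and 796 in DMSO and 2058, 2115 and 2164 in THZ531 and rose by 1.36 (SE 0.07, limma adjusted p = 9.1e-11). RNF152, a lysosomal membrane ligase that acts on the mTORC1 pathway, had 63.5, 68.7 and 55.1 in DMSO and 152, 158 and 139.9 in THZ531 and rose by 1.26 (limma adjusted p = 3.0e-05). These 4 genes, from TRIM36 to RNF152, rose in the deposited scaling, under the same total and under RPL34, and also in every fit with 1 library left out. The remaining 6 of the 10 largest rises were smaller and less firm. RNF139 rose by 1.03, RNF168 by 0.83, RNF20 by 0.73, RNF11 by 0.66, RNF138 by 0.66 and RNF144B by 0.62, and with RPL34 their differences were 0.53, 0.34, 0.24, 0.17, 0.17 and 0.13, none of them called.

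**Figure D3:**
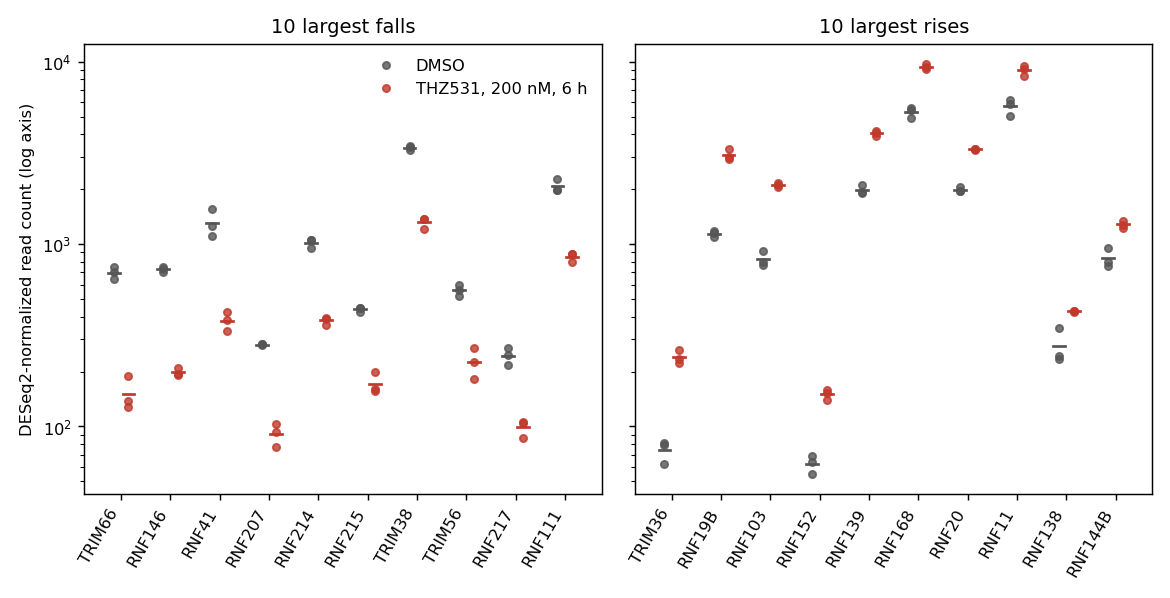
DESeq2-normalized read counts (y axis, log scale) of the 10 largest falls (left) and the 10 largest rises (right) among members with a mean of at least 100, with 1 point per library (grey for DMSO, red for THZ531, n = 3 each) and a line at the group mean. The groups of each gene do not overlap because the genes were chosen so, and the gap is widest for TRIM66, from 697 ± 49.8 to 152 ± 32.6.

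Several large changes concerned genes with few reads, and none of these is among the 20 above. Apart from TRIM71 and the joined locus of TRIM74, they were chosen after their values were seen. RNF225 had 11.1, 1.86 and 6.38 in DMSO and 36.5, 60.2 and 55.7 in THZ531 and rose by 3.00 (SE 0.53, limma adjusted p = 1.1e-04). TRIM71, an NHL-repeat ligase of early development, had 22.2, 19.5 and 23.1 against 59.2, 88.7 and 61.4 and rose by 1.62, and RNF39 had 14.3, 14.8 and 13.6 against 41.6, 39.8 and 52.3 and rose by 1.57. All 3 stayed higher with the same total and with RPL34, but of the DMSO libraries of RNF225 only 1 reached the minimum of 10. On the falling side TRIM73 had 77.01, 80.7 and 95.7 in DMSO and 10.1, 20.5 and 14.8 in THZ531 and fell by 2.45, TRIM34 had 83.4, 114 and 71.01 against 18.9, 13.6 and 22.8 and fell by 2.22, and TRIM15 had 46.8, 38.04 and 36.7 against 12.6, 23.9 and 4.55 and fell by 1.74. TRIM73 and TRIM74 are near-identical copies, so the split of reads between them is uncertain. The joined locus of TRIM74 and STAG3L3 had 1350.0 ± 73.2 and 964 ± 94.3, a log2 fold change of -0.49. RNF112 had 11.1, 15.8 and 26.3 in DMSO and 0, 2.27 and 0 in THZ531, that is 64 reads in the DMSO libraries and 2 in the THZ531 libraries together. It passed the minimum through its DMSO libraries alone and so had to be lower, which makes its call no support for a fall, and leaving out any DMSO library took it below the minimum.

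Levels between members can be compared per length only. Per kilobase of exon, TRIM28 was the highest member in DMSO at 3349.8 normalized reads per kb, followed by RNF181 at 2824, RNF26 at 1997, TRIM8 at 1959 and RNF11 at 1829. By reads not corrected for length, the 5 highest members were TRIM28, TRIM44, TRIM8, RNF10 and RNF168. TRIM28, a corepressor that zinc finger proteins bring to retroelements, had 14906, 14232 and 14135 in DMSO and 21519, 22527 and 22058 in THZ531 and rose by 0.61, although with the same total (0.37) and with RPL34 (0.12) it was no longer called. TRIM44, which lacks a RING, had 15712, 16913 and 17009 against 16419, 16219.6 and 16614, groups that overlapped around a log2 fold change of -0.01 (SE 0.04). TRIM8 had a log2 fold change of 0.15 (SE 0.03), far below the 1.5-fold threshold.

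Among TRIM genes with a RING, those listed with a PRY-SPRY domain and no other C-terminal domain showed falls and no rises. This list was drawn up with earlier results of these data known. TRIM16 (0.48) and TRIM14 (-0.47), which lack a RING, were left off this list and put on a separate list of TRIM genes without a RING. Of the 21 tested genes on the PRY-SPRY list, 12 fell, none rose and 9 were not called, beside 23.9% lower and 15.7% higher over all loci. Their median log2 fold change was -0.66 beside -0.01. With the same total 15 and with RPL34 16 of the 21 were lower, beside 32.0% and 42.8% of all loci, and none was higher under either. TRIM11 had the most reads of those that fell, from 4336 ± 55.04 to 2639 ± 33.7 (SD, n = 3). It fell by 0.72 (SE 0.04, limma adjusted p = 5.2e-10). The gene overlaps TRIM17 on the same strand, and TRIM17 fell by 1.00 with far fewer reads, 82.6, 43.6 and 52.7 against 26.4, 23.9 and 35.3, a call lost without DMSO replicate 1.

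TRIM62 fell by 0.97, TRIM65 by 0.95, TRIM27 by 0.71, TRIM26 by 0.71 and TRIM41 by 0.70. TRIM7 fell by 0.66 and TRIM68 by 0.66, and both calls were lost without DMSO replicate 1. The 9 that were not called included well-known antiviral genes. TRIM25, which ubiquitinates the RNA sensor RIG-I, had 5116, 5324 and 5559.7 in DMSO and 5087, 5092 and 5128 in THZ531, overlapping groups with a log2 fold change of -0.06 (SE 0.04). TRIM5, a restriction factor that recognises retroviral capsids, had 943, 1009 and 1008 against 680.1, 715 and 725, without overlap but with a difference of -0.48. TRIM21, the cytosolic antibody receptor, had a log2 fold change of -0.39, TRIM35 of -0.03, TRIM39 of -0.56 and TRIM47 of -0.32. TRIM22, which lies within the span of TRIM5 on the opposite strand, had 51.6, 54.7 and 44.7 against 62.97, 43.2 and 47.8 (log2 fold change 0.01, SE 0.27).

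The other TRIM classes were small and mixed. In the COS box class TRIM36 rose, while TRIM46, a microtubule organiser of axons, fell by 1.14 from 231 ± 17.7 to 105 ± 13.98, and the muscle ligase TRIM55 fell by 0.59, a call lost without DMSO replicate 3 or THZ531 replicates 1 or 3. In the TIF1 class of PHD and bromodomain proteins TRIM66 fell and TRIM28 rose, the latter not called with the same total or with RPL34, whereas TRIM24 (log2 fold change 0.11, SE 0.06) and TRIM33 (0.16, SE 0.05) were not called. Of the 4 NHL-repeat genes, TRIM2 fell by 1.04 from 2064 ± 33.98 to 1007 ± 75.1, TRIM71 rose, and TRIM3 (0.35) and TRIM32 (-0.47) were not called. With the same total or RPL34, TRIM32 was called lower as well.

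The joined locus of IFT80 and TRIM59 fell by 0.75, from 1289 ± 21.2 to 766 ± 3.93, and cannot be assigned to TRIM59 alone. The joined locus of TRIM13 and KCNRG had a log2 fold change of -0.49 and was called lower only with the same total and with RPL34. Among 8 genes with another C-terminal domain or none, TRIM56 and TRIM73 fell and TRIM37, a ligase of centriole duplication, rose by 0.62 from 4096 ± 26.1 to 6284 ± 129. TRIM37 was not called with the same total (0.37) or RPL34 (0.12). None of the 4 genes on the list of TRIM proteins without a RING was called, beside 39.5% of all loci. This list was not drawn up to hold every such protein, and TRIM66, which fell, was listed by its PHD finger and bromodomain instead. TRIM16 had a log2 fold change of 0.48, TRIM29 of 0.33, TRIM44 of -0.01 and TRIM14 of -0.47. TRIM14 was called lower with the same total and with RPL34, where 32.0% and 42.8% of all loci were lower.

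**Figure D4:**
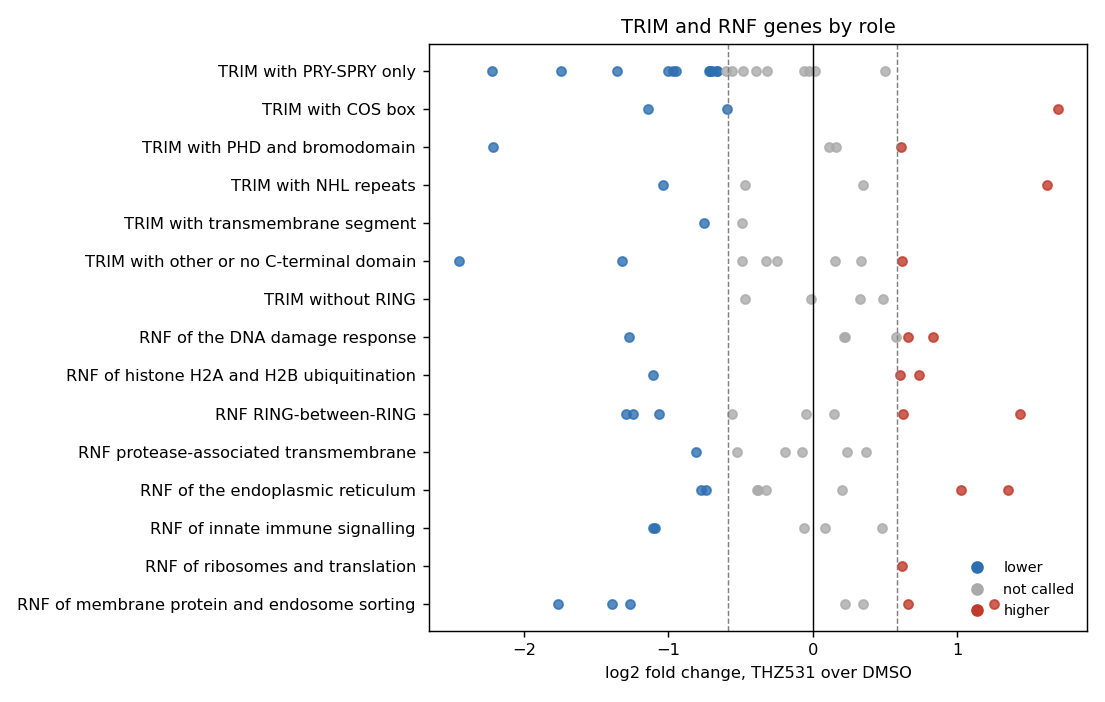
Log2 fold change of THZ531 over DMSO (x axis, log2(value + 1) scale) for the TRIM and RNF genes on 15 role lists (y axis), with 1 point per gene, blue for lower, red for higher and grey for not called, and dashed lines at a 1.5-fold change. The top row, TRIM genes with PRY-SPRY only, leaves out the genes listed as TRIM without a RING, which have their own row. It holds 12 blue and no red points of 21, while most RNF rows hold both colours.

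RNF genes of the DNA damage response went both ways. RNF8 and RNF168 act in sequence on chromatin around a double-strand break, RNF8 starting the ubiquitin signal and RNF168 extending it on histone H2A. RNF168 had 4901, 5409 and 5566 in DMSO and 9151, 9663 and 9386 in THZ531 and rose by 0.83 (SE 0.05, limma adjusted p = 2.9e-10), with 0.59 at the same total and 0.34 with RPL34, where it was not called. RNF8 had 1519, 1498 and 1441 against 1809, 1652 and 1733, a difference of 0.22 without overlap but below the threshold, and RNF169, which competes for the marks that RNF168 makes, had a log2 fold change of 0.23.

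RNF138, which helps to resect broken ends, had 348, 236 and 243 against 429, 426 and 431 and rose by 0.66, a call lost without DMSO replicates 2 or 3, with the same total and with RPL34. RNF111 fell, as given above. RNF4, a SUMO-targeted ligase, lay just under the threshold at 0.57 (1696 ± 82.4 against 2525 ± 84.8, SD, n = 3) and passed it without DMSO replicate 3 or THZ531 replicate 3. Over the 6 genes of this list 2 were higher and 1 lower with a median of 0.40, beside 15.7% of all loci higher and 23.9% lower, while with the same total 1 and with RPL34 none was higher, beside 9.38% and 6.14%.

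Of 3 listed RNF ligases that mark histones 2 rose and 1 fell in the deposited scaling, beside 15.7% and 23.9% of all loci. With the same total and with RPL34 alike, none was higher and 1 was lower. RNF20 and RNF40 are the paired subunits of the ligase that places ubiquitin on histone H2B. RNF20 (chr9:101533851-101563344, plus strand) had 1958, 1957 and 2059 in DMSO and 3272, 3318 and 3342 in THZ531 and rose by 0.73 (SE 0.05, limma adjusted p = 1.2e-09). RNF40 (chr16:30761612-30776307, plus strand) had 2677, 3082 and 2822 against 1261, 1358 and 1356 and fell by 1.11 (SE 0.06, limma adjusted p = 1.9e-10). RNF20 had 0.49 with the same total and 0.24 with RPL34, neither called. RNF40 stayed lower under each scaling, but the other scalings only moved loci down, so its fall could hardly be lost. The H2B pair thus separated in these libraries under the deposited scaling. Whether the fall of RNF40 would hold under a scaling that moves loci up was not tested.

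RNF2 is the catalytic subunit of Polycomb complex 1, which marks histone H2A. It had 1304, 1294 and 1421 in DMSO and 2048, 2059.7 and 2011 in THZ531 and rose by 0.61, a call at the edge of the threshold that was lost without DMSO replicate 2, with edgeR, with the same total and with RPL34. Its paralog RING1, which is outside the naming rule, had 1361, 1252 and 1191 against 611, 598 and 538 and fell by 1.12 (SE 0.08, limma adjusted p = 3.2e-09). BMI1, a partner of either, had a log2 fold change of 0.36.

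Of 8 ligases of the RING-between-RING class, 3 fell and 2 rose, beside 23.9% and 15.7% of all loci. Under the same total and under RPL34 alike, 4 were lower and 1 was higher. RNF31 is the catalytic subunit of LUBAC, the complex that builds linear ubiquitin chains in NF-kappaB signalling. It had 2342, 2405 and 2187 in DMSO and 941, 1154 and 1240.1 in THZ531 and fell by 1.06 (SE 0.08, limma adjusted p = 1.2e-08). Among its partners RBCK1 fell by 0.82, from 444, 433 and 365 to 229, 242 and 229, and SHARPIN had a log2 fold change of -0.21 and was not called. RNF217 and RNF144A fell by 1.30 and 1.25, whereas RNF19B and RNF144B rose. RNF144B had 955, 799 and 755 against 1276, 1229 and 1346, a call lost without DMSO replicate 3, with the same total and with RPL34. RNF19A, the paralog of RNF19B, had 591, 562 and 676 in DMSO and 491, 368 and 388 in THZ531, a log2 fold change of -0.56 opposite in sign to the rise of RNF19B by 1.43. RNF14 (-0.04), which acts on stalled ribosomes, and RNF216 (0.15) were not called.

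At the endoplasmic reticulum membrane, RNF103 and RNF139 rose while RNF145 and RNF170 fell. RNF139 and RNF145 are related ligases that act on the sterol-regulated enzyme HMG-CoA reductase. RNF139 had 1941, 1906 and 2118 in DMSO and 4171, 4057 and 3908 in THZ531, a rise by 1.03 (SE 0.05, limma adjusted p = 8.0e-11) that was not called with RPL34 (0.53). RNF145 had 2055, 2028 and 2055 against 1311, 1076 and 1298 and fell by 0.74 (SE 0.07, limma adjusted p = 1.3e-07). RNF5, RNF26, RNF121 and RNF185 were not called, with log2 fold changes of -0.39, -0.33, 0.20 and -0.38. With the same total RNF185 was called lower, and with RPL34 RNF185 and RNF26 were.

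Of 7 tested ligases of membrane protein and endosome sorting 3 fell and 2 rose, beside 23.9% and 15.7% of all loci. With the same total and with RPL34 alike, 3 were lower and 1 was higher. The shares of all loci were 32.0% and 42.8% lower, and 9.38% and 6.14% higher. RNF41 and RNF34, which acts on caspases and other substrates, fell by 1.77 and 1.26, the latter from 1557, 1752 and 1570.3 to 627, 677 and 727. RNF183 fell by 1.39 at a low level, 32.5, 44.5 and 59.04 against 25.2, 18.2 and 9.10, and shares its span with POLE3 on the same strand. RNF152 rose, and so did RNF11, a cofactor of the deubiquitinase A20, with 5061, 5850.4 and 6166 in DMSO and 9451, 9115 and 8390.4 in THZ531. The rise of RNF11 by 0.66 was lost without DMSO replicate 1 and was not called with the same total or with RPL34. RNF115 (0.23) and RNF126 (0.35) were not called.

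Of 6 tested protease-associated transmembrane ligases 1 fell, none rose and 5 were not called, beside 23.9% of all loci lower and 15.7% higher. With the same total 2 and with RPL34 3 were lower, RNF43 among them under both, beside 32.0% and 42.8% of all loci. RNF13 fell by 0.81 from 933 ± 15.9 to 533 ± 33.02. RNF43, a brake on WNT receptors, had 379, 323 and 273 against 215, 214 and 243 and a log2 fold change of -0.52, and RNF130, RNF149, RNF150 and RNF167 had 0.37, 0.24, -0.19 and -0.07. RNF10, which ubiquitinates proteins of the small ribosomal subunit, rose by 0.62 from 5866 ± 294 to 8988 ± 268, a call lost without DMSO replicate 3, with the same total and with RPL34.

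Among RNF genes of innate immune signalling the giant ligase RNF213 had the firmest fall of all members by adjusted p. It had 8517, 8659 and 8450.5 in DMSO and 3947, 4092 and 3849 in THZ531 and fell by 1.11 (SE 0.04, limma adjusted p = 1.8e-12). RNF135, which ubiquitinates RIG-I, had 1624, 1680.4 and 1630.1 against 758, 751 and 802 and fell by 1.09 (SE 0.06, limma adjusted p = 3.1e-10). RNF114 (0.48), RNF125 (-0.06) and RNF166 (0.08) were not called, and the groups of RNF125 and RNF166 overlapped. A list of 11 tested interferon response genes, given as background for these ligases, held 2 higher, 3 lower and 6 not called genes with a median of -0.34, beside 15.7% of all loci higher and 23.9% lower. With the same total 2 were higher and 6 lower, and with RPL34 1 and 8. IRF7 rose by 1.99 and ISG15 by 0.95, while IRF1 fell by 1.40, IRF9 by 1.06 and IFIT3 by 0.94.

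The enzymes upstream of the ligases were mostly not called. Of 35 tested E1 and E2 genes 7 rose, 3 fell and 25 were not called, beside 15.7% of all loci higher and 23.9% lower, and their median log2 fold change was 0.18. With the same total 1 was higher and 6 were lower, and with RPL34 none was higher and 9 were lower, beside 9.38% and 6.14% of all loci higher and 32.0% and 42.8% lower. UBE2N, the E2 that makes the chains of RNF8 and RNF168 signalling, rose by 0.61, close to the threshold, and was not called with the same total or with RPL34. Its partner subunit UBE2V2 fell by 1.15, from 6481, 7135 and 7520.1 to 3346, 3118 and 3028. The other partner subunit, UBE2V1, had more reads, means of 29876 in DMSO and 25937 in THZ531, and was not called (-0.20). UBE2J2, an E2 of the endoplasmic reticulum, fell by 1.30 from 11375, 11319 and 11284 to 4624, 4326 and 4836, and UBE2D1, which serves many RING ligases, rose by 1.01. UBE2A and UBE2B, the E2 enzymes of RNF20 and RNF40, had log2 fold changes of -0.41 and 0.15 and were not called.

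Of 36 tested relatives and partners outside the naming rule 8 were higher and 8 lower with a median of 0.25, beside 15.7% of all loci higher and 23.9% lower. With the same total 1 was higher and 12 lower, beside 9.38% and 32.0%, and with RPL34 1 and 13, beside 6.14% and 42.8%. BRCA1, a RING ligase of homologous recombination, fell by 1.94 from 672, 742 and 725 to 176, 183 and 197, BFAR fell by 1.78 and XIAP by 1.10. SIAH1 rose by 1.20, from 441, 473 and 436 to 1087, 1024 and 999. MID1, a TRIM protein by structure that carries a COS box, fell by 0.78.

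RNF135 was the only member with a locus inside it that was called higher. The table lists loci without a symbol as well as genes, and 54 of them lay within the span of a member, of which 6 reached the minimum. Over all loci without a symbol 31.1% were higher and 25.3% lower. The strand of such loci was read from the order of their identifiers, a reading that gave the annotated strand for 98.4% of the 23892 named loci where it could be made. Of the 3 on the strand of their host, 1 was higher (in RNF135), 1 was lower (in TRIM14, where it overlaps an exon) and 1 was not called (in RNF126).

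The locus in RNF135 spans chr17:30971652-30973312 (hg38, plus strand, 1661 nt) and lies wholly in intron 1 of the MANE transcript. That intron runs over chr17:30971446-30984616 (13171 nt), so 206 nt of intron precede the locus and it ends 1867 nt into the intron, and it overlaps no GENCODE exon of RNF135. The sequences at the start of the intron and around the polyadenylation-like hexamer in the locus are shown to place the locus within the gene. The GT of the 5′ splice site and the hexamer ATTAAA are in capitals (hg38, plus strand).
RNF135 exon 1 to intron 1, chr17:30971434-30971463: gaactgcagcggGTagggaggccgggcccg
RNF135 intron 1, chr17:30971751-30971780: gatctatataacATTAAAactggccatttt

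The hexamers AATAAA and ATTAAA were searched on the sense strand of the locus. It held no AATAAA and 1 ATTAAA, at chr17:30971763-30971768, with 317 nt of the intron before it. This hexamer lies 111 nt into the locus, with 1544 nt of the locus after it. The value of the locus does not show where within it the reads lie. In the same window of intron 1, 52.9% of 8586 genes with a long enough intron held AATAAA, 46.0% held ATTAAA and 69.8% held either. Among 80 members these shares were 57.5%, 55.0% and 77.5%. A match of 6 letters is common at this length and is a description of the sequence only.

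The locus had 227, 289.5 and 237 normalized reads in DMSO and 559, 648 and 601 in THZ531, so that every treated library was above every control library. It rose by 1.26 on the log2 scale (SE 0.11, limma adjusted p = 7.0e-08) in the same libraries in which RNF135 fell by 1.09. It was higher under each scaling and with every library left out in turn. Whether reads of the locus were also counted on RNF135 is not stated. DPRXP4, a pseudogene on the same strand in the same intron (chr17:30975335-30975980), was looked at after its values were seen. It had 32.5, 45.5 and 27.1 in DMSO and 76.8, 98.9 and 83.1 in THZ531 and rose by 1.30 on the log2 scale (SE 0.28, limma adjusted p = 5.6e-04).

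**Figure D5:**
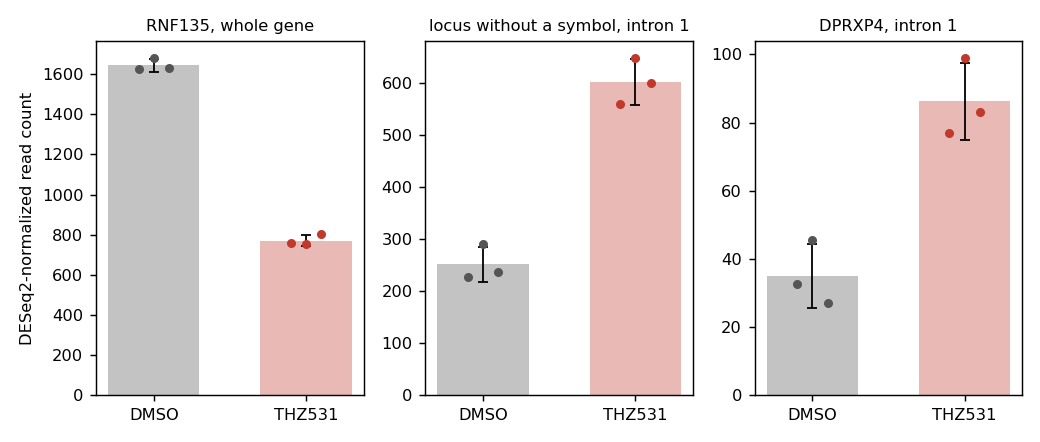
DESeq2-normalized read counts (y axis, a separate linear scale from 0 in each panel) of RNF135, of the locus without a symbol in its intron 1 and of the pseudogene DPRXP4 in the same intron, in DMSO and THZ531. Bars are means with SD and points are the 3 libraries of each group: RNF135 goes from 1645 ± 30.9 down to 771 ± 27.5, while both intronic loci are higher in all 3 THZ531 libraries.

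The members that fell were shorter by median than those that rose, a difference that was not tested. The 38 that fell had a median span of 21.4 kb, 8 exons and a longest intron of 8.42 kb, the 18 that rose 36.1 kb, 6.5 exons and 13.6 kb, and the 62 not called 28.2 kb, 7 exons and 8.06 kb. Loci with a symbol had 28.3 kb, 8 exons and 10.1 kb when lower and 28.1 kb, 8 exons and 10.3 kb when higher. Across the 117 members with a MANE transcript, Spearman's rho of the log2 fold change was 0.05 with span, -0.11 with exon number and 0.09 with the longest intron, and 0.30 with the mean value, beside -0.04, -0.02, -0.05 and 0.33 across 13391 loci with a symbol. These are correlations across genes of the same 6 libraries, and genes are not independent replicates. The mean value also sets how many reads lie behind each log2 fold change.

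Some neighbouring members were called in the same direction and others were not. TRIM11 and TRIM17 both fell, as given above. On chromosome 5, TRIM7 and TRIM41 fell by 0.66 and 0.70, and TRIM52 (-0.32) was not called. On chromosome 17, TRIM65 fell by 0.95, and TRIM47 (-0.32) was not called. On chromosome 6, TRIM15, TRIM26 and TRIM27 fell by 1.74, 0.71 and 0.71, TRIM10 (-0.60, SE 0.51) and TRIM39 (-0.56, SE 0.10) were not called, and RNF39, which overlaps PPP1R11 on the opposite strand, rose. In the cluster on chromosome 11, TRIM34 fell by 2.22 and TRIM68 by 0.66, whereas TRIM5 (-0.48), TRIM6 (0.50), TRIM21 (-0.39) and TRIM22 (0.01) were not called. TRIM34 had 83.4, 114 and 71.01 in DMSO and TRIM6 23.8, 44.5 and 33.5, so both had few reads.

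Of the 118 tested members 28 were on no role list. Those of them that were called included RNF24, which fell by 1.18 from 1071 ± 22.97 to 474 ± 61.01, and RNF122, which rose by 0.85 from 64.3, 57.5 and 68.6 to 94.5, 119 and 135. RNF7, a RING subunit of cullin ligases, lay just under the threshold at 0.55 (4878, 4994 and 4372 against 6872, 6907 and 7076), and RNF220 had a log2 fold change of -0.52 from 4870.4 ± 129 to 3398 ± 157. RNF187, RNF6 and RNF113A, all well expressed, had -0.13, -0.09 and -0.11. These genes were chosen after their values were seen.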

How the data were processed

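Per the study's methods and the labels, the authors sequenced polyA plus RNA-seq libraries as 150 bp read pairs, aligned them with STAR (2.7.5a in the submitters' processing notes; the methods text gives another version), counted reads with featureCounts on FAST DB loci (hg38) and normalized with DESeq2. The deposited values are a signal, each library's counts over its own size factor, with no correction for gene length. All 6 columns were used (0 were unmapped). In every library 100% of values were whole multiples of 1 read (tolerance 0.01), so reads were recovered, and 53054048 to 70986130 reads per library set the counting precision.

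Members and lists were chosen with earlier results of these data known. The values were tested as log2(value + 1) in limma 3.58.1 (R 4.3.3, trended variance, no covariates) over the 17568 loci that had 10 or more in 3 or more libraries, and called at a fold of 1.5 and p of 0.05, with Benjamini-Hochberg adjustment over all of these loci. Fold changes of low genes are understated on this scale. Named genes were the 10 largest rises and the 10 largest falls (mean of at least 100, no overlap between groups, 1 symbol), the 5 highest members, up to 4 of the highest members per role list and hosts of a locus called higher. Others are said to be chosen after their values were seen or stand as members of a list. Alternatives were edgeR 4.0.16 and DESeq2 1.42.0 on the recovered reads, other pseudocounts, minimums and thresholds, scaling to the same total, the upper quartile, RPL34 or TMM, a replicate block and leaving out each library. edgeR called 6863 and DESeq2 6788 loci, beside 6948 for limma, of which 6728 and 6758 were shared in direction. The scripts were tested on simulated data. Strand, exons and MANE introns came from GENCODE v44 (hg38).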

Additional observations from a re-analysis of the deposited data

How the results depend on the processing

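The number of higher members moved from 18 to 10 with the same total, to 7 with RPL34 and to 8 at a fold of at least 2, and the number of lower members from 38 to 63 with RPL34 and to 25 at a fold of at least 2. The median log2 fold change of the members moved from -0.23 to -0.18 with a minimum of 50, to -0.47 with the same total and to -0.72 with RPL34. The count of loci without a symbol called higher inside members moved from 1 to 2 with no minimum. The scalings change what counts as no change by their own construction, and for the other moves fewer or more genes pass by construction. Upper-quartile and TMM scaling gave 18 higher and 38 lower members with a median of -0.25 in both, and removing RNF112, chosen after seeing the data, gave 18 and 37. Leaving out 1 library at a time gave 17 to 19 higher and 34 to 39 lower members and medians of -0.25 to -0.21, with 1 higher locus inside a member in each fit. With edgeR 17 members were higher and 38 lower (median -0.25), and with DESeq2 18 and 38. Of 1280 values of named members under the alternatives 1224 kept the call, and none that was called in either fit changed sign. A further 28 values changed sign while below the threshold in both fits, and these count among those that kept the call. The labels number the replicates alike in both groups, but the same-numbered libraries did not deviate together (correlations 0.00, 0.02 and -0.04), so the numbers do not pair them, and only replicate 2 matched its own number best. A replicate block as a term in limma left 18 higher and 38 lower members and a median of -0.23. Depth limits members with few reads, and RNF112 rested on 64 and 2 reads. The 14 members at 0 could not be compared between the groups, and the reason for their 0 was not tested.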
